A study of Mus musculus with 8 samples.

Results

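Expression in mouse embryonic fibroblasts with a mutant Dino locus was compared with that in wild-type (WT) fibroblasts after both had been exposed to doxorubicin. The comparison used the 2 mutant libraries with doxorubicin against the 2 WT libraries with doxorubicin, and the gene rows whose names lie on the 19 autosomes. Of 30419 gene names in the table, 22130 were autosomal, and 11417 of these had enough counts to be tested, out of 12255 genes tested in all. Rows of the sex chromosomes and names without a chromosome were left out.

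All cells were early-passage fibroblasts grown from E13.5 embryos. WT cells were Dino+/+, and mutant cells carried the lox allele of Dino on both chromosomes (written DINO loxP/loxP or Dino lox/lox in the labels). No recombinase is named, and how the allele alters Dino is not given in the sources used here. Doxorubicin was given at 0.2 µg/mL for 8 h, and 2 further groups, also of 2 libraries each, held WT and mutant cells that received vehicle for the same time. The libraries of a group carry the letters A and B, and pairs of values below are in that order. The labels do not tell whether A and B are separate embryos or cultures, so p-values measure only the spread between these libraries, which may be technical. The number of embryos behind each genotype is not given in the sources used here, so an effect of the allele and a difference between the cultures of origin cannot be told apart.

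Doxorubicin blocks topoisomerase II on DNA and causes double-strand breaks. The breaks activate the transcription factor p53, which induces Cdkn1a, whose product p21 inhibits cyclin-dependent kinases, and Mdm2, whose product degrades p53 in a feedback loop. The Dino locus sits next to Cdkn1a and gives a long noncoding RNA that p53 induces and that has been described as a stabiliser of p53. When p21 accumulates, the DREAM complex of pocket proteins, E2F and MuvB factors represses genes of DNA replication and mitosis, and cells stop dividing. The level of Dino itself was not analysed here.

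Total counts ran from 25482805 to 33285171 in the 8 libraries, and from 25482805 to 31399132 in the 4 compared. A count of 0 allows up to 3 counts, or 0.0939 to 0.120 CPM (counts scaled to library size) in the doxorubicin libraries, counting error only. WT doxorubicin libraries A and B differed from each other more than the other pairs did. Over genes, the chi-square of their counts was 18.2 times its degrees of freedom, against a ratio of 5.43 for the mutant doxorubicin pair and 6.16 and 5.56 for the vehicle pairs. Xist was at 0.232 and 0.376 CPM in WT and at 575 and 469 CPM in mutant libraries with doxorubicin, and Uty, Kdm5d, Eif2s3y and Ddx3y of the Y chromosome stood in mutant libraries at 12.9% to 14.8% of their WT level. These values move with the genotype in every result below. The sex makeup of the cultures is thus confounded with the genotype and cannot be told apart from the allele. Its part in the results was not tested.

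Fibroblast markers fitted the labelled cell type. The 12 markers were present in every doxorubicin library and summed to 5691 and 5403 CPM in WT and 5329 and 5220 CPM in mutant libraries. Markers of other cell types were also read, and some of them differed between the genotypes. Of all autosomal genes tested, 3.85% were called higher and 3.79% lower in mutant cells with doxorubicin. The 15 macrophage and leukocyte markers in the table summed to 98.0 and 100.2 CPM in WT and 118.0 and 122.1 CPM in mutant libraries, with none at 0. Much of the sum was Cd53, at 44.74 and 47.72 CPM in WT and 56.46 and 65.97 CPM in mutant libraries. Of 13 tested, 10 had a log2 fold change above 0 and 3 were called higher (Cd53, Fcer1g and Csf1r). The Csf1r call was lost in 3 alternatives. Neural and glial markers summed to 581.1 and 738.4 CPM in WT and 877.1 and 873.7 CPM in mutant libraries, and Sox10 and Elavl3 were at 0 in all 4. Of 7 tested, Map2, Ncam1 and Elavl4 were higher and Nes was lower, and most of the sum was Ncam1, at 530.0 and 690.3 CPM in WT and 812.4 and 808.3 CPM in mutant libraries. Cartilage and bone markers summed to 169.3 and 190.7 CPM in WT and 236.0 and 233.2 CPM in mutant libraries, with Sp7 and Ibsp at 0 and 1 of 3 tested genes higher (Sox9). Most of this sum was Sox9, at 132.9 and 154.5 CPM in WT and 194.5 and 197.1 CPM in mutant libraries. Of the 3 tested, 2 had a log2 fold change above 0. Col2a1 was lower without a call, at 1.722 and 1.627 CPM in WT and 0.5202 and 1.225 CPM in mutant libraries. Adipocyte markers summed to 77.76 and 74.1 CPM in WT and 101.2 and 111.2 CPM in mutant libraries, with Plin1 and Cidec at 0 and 1 of 5 higher (Lpl). Most of this sum was Lpl, at 51.17 and 47.44 CPM in WT and 78.71 and 86.92 CPM in mutant libraries. Of the 5 tested, 3 had a log2 fold change above 0. Fabp4 was lower without a call, at 16.92 and 15.77 CPM in WT and 13.16 and 13.99 CPM in mutant libraries. Of 4 endothelial markers tested Tek was lower (a call lost in 4 alternatives). Of 3 mesothelial markers Wt1 was higher (a call lost in 2 alternatives), and it was the only 1 with a log2 fold change above 0. Krt19 was lower without a call, at 5.1 and 5.132 CPM in WT and 3.201 and 3.874 CPM in mutant libraries. None of the tested erythroid (1), skeletal muscle (3) or epithelial (2) markers was called. Whether these differences bear on the genes below was not tested.

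A gene was called when its adjusted p was under 0.05 by edgeR's quasi-likelihood test with Benjamini-Hochberg adjustment over all 12255 genes. With doxorubicin, 872 autosomal genes (7.64%) were called between the genotypes. Of these, 439 (3.85%) were higher and 433 (3.79%) were lower in mutant cells. Most differences were small. The median size among called genes was 0.53 on the log2 scale, and 143 genes (1.25%) differed at least 2-fold, 55 of them higher (0.482%) and 88 lower (0.771%). Over all autosomal genes the median log2 fold change was -0.00308, and 49.3% of genes lay above 0. The libraries of the genotypes did not overlap for 5439 genes (47.6%), so a lack of overlap alone is common here. The number of calls rested on the few libraries. It was 485 without WT doxorubicin library A, 1118 without WT doxorubicin library B, 498 without mutant doxorubicin library A and 565 without mutant doxorubicin library B.

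**Figure D1:**
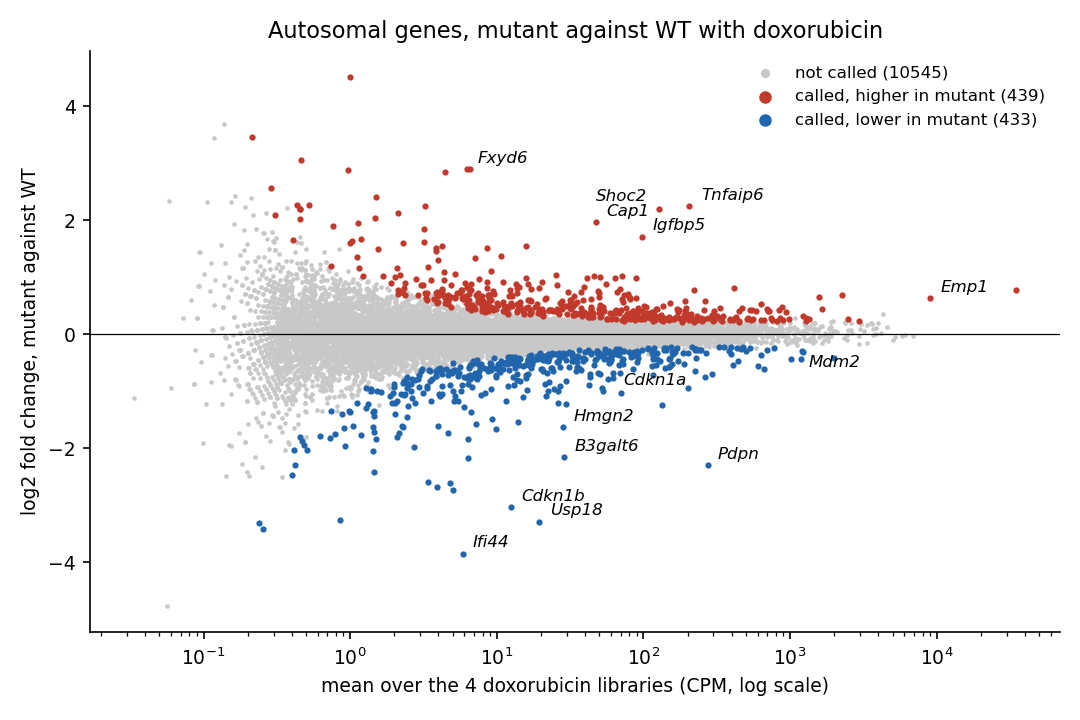
Each point is an autosomal gene, with its mean over the 4 doxorubicin libraries (CPM, log scale) on the horizontal axis and its log2 fold change, mutant against WT, on the vertical axis. The 439 genes called higher are red and the 433 called lower are blue. Pdpn and Tnfaip6 lie far from 0 at high levels, whereas Cdkn1a and Mdm2 lie near the centre.

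Members of the p53 pathway came first, since Dino has been placed in it. Trp53, which encodes p53, was at 6.66 and 7.82 CPM in WT and 7.24 and 8.93 CPM in mutant libraries, and these ranges overlapped (log2 fold change 0.16 ± 0.14, SE, edgeR adjusted p = 0.605). Mdm2 was at 1204 and 1112 CPM in WT and 1066 and 1037 CPM in mutant libraries. Both mutant values lay under both WT values, but the difference did not pass the test (log2 fold change -0.14 ± 0.07, edgeR adjusted p = 0.252). Cdkn1a was at 72.5 and 66.2 CPM in WT and 49.9 and 51.7 CPM in mutant libraries. Its groups did not overlap, and it was 1.36-fold lower in mutant cells (log2 fold change -0.45 ± 0.09, edgeR adjusted p = 0.00231). The same difference was present with vehicle, where Cdkn1a was at 12.6 ± 1.76 CPM (mean ± SD, n = 2) in WT and 8.98 ± 0.526 CPM in mutant cells (log2 fold change -0.49 ± 0.11). The difference between these fold changes, with minus without the drug, was 0.05 ± 0.14 (edgeR adjusted p = 0.998).

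Of 41 tested p53-activated genes of arrest and feedback, 3 were lower, none was higher and 38 were not called, around a median of -0.05 on the log2 scale. The share called, 7.32%, was near the 7.64% of all autosomal genes. Besides Cdkn1a, the lower genes were Epha2, an ephrin receptor gene, at 37.8 and 45.2 CPM in WT and 16.2 and 19.5 CPM in mutant libraries, and Ephx1, an epoxide hydrolase gene, at 26.9 and 23.4 against 19.4 and 20.1 CPM. The Ephx1 call was lost in 10 alternative analyses. In the p53 apoptosis list, 4 of 22 tested genes were lower and 1 was higher (22.7%, against 7.64% of all autosomal genes), with a median of 0.05. Perp, which encodes a membrane protein of p53-dependent death, was at 285 and 242 CPM in WT and 130 and 143 CPM in mutant libraries. That is 1.93-fold lower, and its groups lay far apart (log2 fold change -0.95 ± 0.08). Pmaip1, which encodes the BH3-only protein Noxa, was at 1158 and 1181 CPM in WT and 825 and 903 CPM in mutant libraries (log2 fold change -0.44 ± 0.07). Dapk1, a death-associated kinase gene, was lower by a log2 fold change of -0.80 ± 0.14. Bcl2l11, which encodes the BH3-only protein Bim, was the 1 member that was higher, at 15.9 and 17.4 CPM in WT and 21.4 and 22 CPM in mutant libraries, a call lost in 4 alternatives. With vehicle, where 3.21% of all autosomal genes were lower in mutant cells, Epha2, Perp and Pmaip1 were also called lower (log2 fold changes -1.03 ± 0.15, -0.73 ± 0.11 and -0.57 ± 0.07), and Dapk1 and Ephx1 were not.

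Because Dino lies beside Cdkn1a, the neighbours of Cdkn1a in gene order were read on both sides. Of the 20 nearest tested genes, 10 on each side, from Tead3 to Zfand3 on chromosome 17, edgeR's test called none (all autosomal genes, 7.64%). Their log2 fold changes ran from -0.38 to 0.54, and the lowest edgeR adjusted p was 0.139. An unadjusted p under 0.05 was found for 1 of the 20, and for 2206 of all 11417 autosomal genes. Pim1, with the highest fold change, was low, at 0.298 and 0.595 CPM in WT and 0.760 and 0.553 CPM in mutant libraries. With so few genes, the lack of calls does not show that the neighbourhood is unaffected. Chromosome 17 as a whole held no called gene that differed at least 2-fold among 525 tested (all autosomal genes, 1.25%).

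Genes of G2/M and mitosis were higher in mutant cells with doxorubicin. Of 74 tested, 40 were called higher (54.1%, against 3.85% of all autosomal genes) and none lower, and the median was 0.37 on the log2 scale (-0.00308 over all autosomal genes). The differences were moderate, from 0.23 to 0.97 on the log2 scale among the called members. The doxorubicin libraries did not overlap for 85.1% of the 74 tested members (62 higher and 1 lower in mutant cells), against 47.6% of all autosomal genes. Without mutant doxorubicin library A, 23 members were called. RNA came from whole cultures, so a larger share of cycling cells and more RNA per cell cannot be told apart.

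Many mitotic genes share promoter elements, the CHR element (TTTGAA) through which DREAM and later B-MYB and FOXM1 bind, and CCAAT boxes bound by NF-Y. The promoter windows of 3 members described below are shown from 250 bases before to 20 bases after the RefSeq start (GRCm38.p6), 5′ to 3′ on the gene's strand, with matches to both elements, read on either strand, in capitals. All 3 genes lie on the minus strand, at chr7:135716360-135716629, chr11:40733418-40733687 and chr11:99024170-99024439.
Mki67: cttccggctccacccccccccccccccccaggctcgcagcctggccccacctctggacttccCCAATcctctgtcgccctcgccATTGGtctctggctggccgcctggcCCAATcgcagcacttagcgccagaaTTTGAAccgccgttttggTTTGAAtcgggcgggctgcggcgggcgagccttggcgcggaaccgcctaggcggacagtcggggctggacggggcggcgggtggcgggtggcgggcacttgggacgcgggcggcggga
Hmmr: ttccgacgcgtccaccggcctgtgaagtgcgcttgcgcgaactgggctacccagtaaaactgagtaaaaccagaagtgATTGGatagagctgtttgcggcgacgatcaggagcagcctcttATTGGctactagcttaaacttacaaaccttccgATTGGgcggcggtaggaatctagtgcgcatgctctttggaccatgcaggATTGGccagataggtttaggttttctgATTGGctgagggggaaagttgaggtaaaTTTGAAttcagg
Top2a: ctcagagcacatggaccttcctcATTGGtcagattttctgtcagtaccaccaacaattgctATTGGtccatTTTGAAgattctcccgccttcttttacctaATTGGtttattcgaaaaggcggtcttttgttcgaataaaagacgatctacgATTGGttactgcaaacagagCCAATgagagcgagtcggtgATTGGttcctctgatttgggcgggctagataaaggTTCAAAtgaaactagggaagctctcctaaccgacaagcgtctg
The windows of Mki67, Hmmr and Top2a held 2, 1 and 2 CHR matches and 3, 5 and 6 CCAAT matches. In windows of 300 bases (250 before and 50 after the start), searched on both strands, a CHR match stood in 43 of 64 windows of the list's 60 matched genes (67.2%), in 21 of 37 windows of its called members (56.8%) and in 12% of 11471 windows of all tested autosomal genes. A CCAAT match stood in 75.0%, 67.6% and 37.5% of these windows. The 2 motifs can share at most 1 base where they meet, and a match does not show binding.

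Top2a, which encodes the topoisomerase II that doxorubicin traps, was at 56.5 and 62.6 CPM in WT and 97.7 and 96.4 CPM in mutant libraries. Its groups lay well apart, with mutant cells 1.63-fold higher (log2 fold change 0.70 ± 0.08, edgeR adjusted p = 1.61e-06). The proliferation marker Mki67 was at 32.8 and 36.1 CPM in WT and 52.2 and 54.3 CPM in mutant libraries (log2 fold change 0.63 ± 0.08). Hmmr, which encodes a spindle-associated protein, was at 22.3 and 23.2 CPM in WT and 35.7 and 40.6 CPM in mutant libraries (0.74 ± 0.09). Gas2l3, a cytoskeletal linker gene of cell division, was at 34.6 and 38.1 CPM in WT and 60.3 and 63.2 CPM in mutant libraries (0.76 ± 0.08). In each of these genes both mutant values exceeded both WT values. Sgol2, which protects centromeric cohesin, had a log2 fold change of 0.62 ± 0.07.

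Other components of mitosis had the same direction, in members named after their values were seen. Among the kinases, Cdk1 was at 35.2 and 42.3 CPM in WT and 60.3 and 61.4 CPM in mutant libraries, and the checkpoint kinases Ttk and Bub1 had log2 fold changes of 0.78 ± 0.11 and 0.54 ± 0.09. Ccnb1, which encodes the Cdk1 partner cyclin B1, was at 61.0 and 49.5 CPM in WT and 72.5 and 76.1 CPM in mutant libraries (0.43 ± 0.09). The spindle motors Kif11 and Kif14 differed more, by 0.92 ± 0.14 and 0.81 ± 0.10. Kif11 was low, at 5.40 and 6.38 CPM in WT and 9.56 and 12.7 CPM in mutant libraries. Cenpf, a kinetochore gene, had a log2 fold change of 0.79 ± 0.13, and Foxm1, the transcription factor of the G2/M program, one of 0.54 ± 0.15, a call lost in 5 alternatives. The largest value among the called members was that of Fam64a (0.97 ± 0.19). Pttg1, which encodes securin, did not follow them, at 28.4 and 26.5 CPM in WT and 30.5 and 31.3 CPM in mutant libraries (0.17 ± 0.09, edgeR adjusted p = 0.318).

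**Figure D2:**
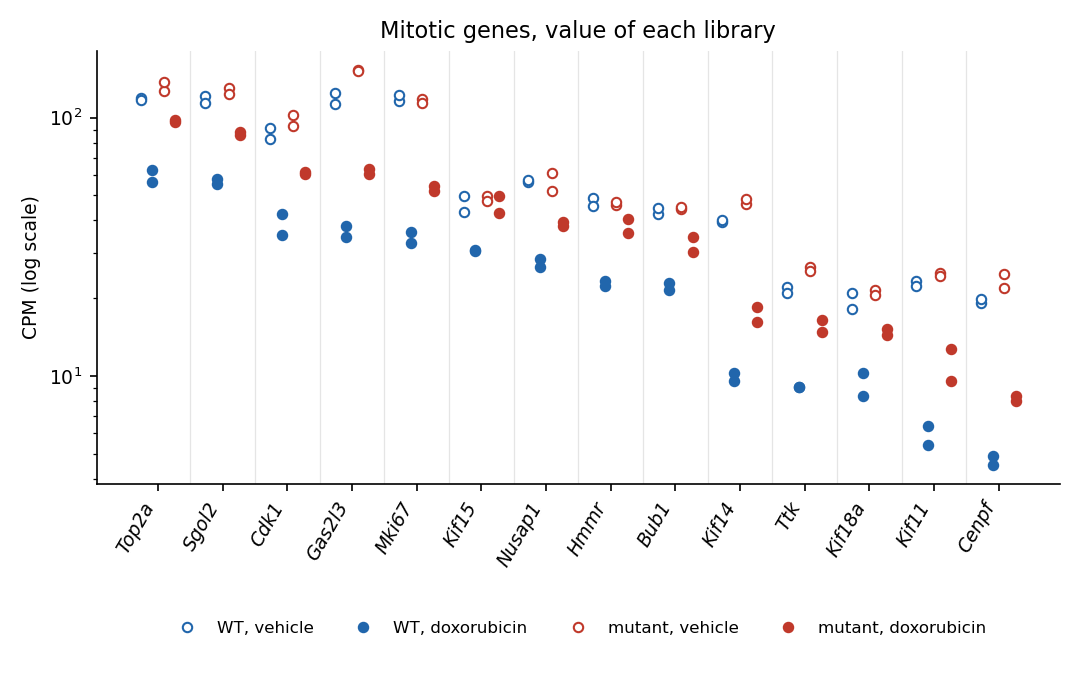
The 14 mitotic genes with the smallest p among those called higher with doxorubicin are shown. Each library has 1 point (CPM, log scale), open for vehicle and filled for doxorubicin, blue for WT and red for mutant. With doxorubicin both mutant points lie above both WT points for each gene, a difference by which the genes were chosen. With vehicle the points of the genotypes lie close together.

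With vehicle, few mitotic genes were called. Of the 74 genes, 2 were higher in mutant cells (all autosomal genes, 2.73%) and none lower. The median was 0.04 on the log2 scale, and 1 of the 40 members called with doxorubicin was also called with vehicle (Gas2l3, 0.36 ± 0.07). Of these 40, 31 had the same sign with vehicle, where their log2 fold changes ran from -0.0608 to 0.494. The genotype difference was larger with than without doxorubicin for 66 of the 74 members, against 52.0% of all autosomal genes, with a median gap of 0.37. Tested gene by gene, edgeR called this gap (all autosomal genes, 0.0788%) for Mki67 (0.67 ± 0.11), Hmmr (0.76 ± 0.12) and, in the other direction, Pttg1 (-0.81 ± 0.14). At an unadjusted p under 0.05 there were 39 of the 74, against 656 of all 11417 autosomal genes. The 39 were counted in either direction, with Pttg1 among them. For members other than Mki67, Hmmr and Pttg1 the gap between the 2 comparisons was not called.

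Of 65 tested genes of G1/S and DNA replication, 5 were higher and 1 lower. The share called in either direction was 9.23%, against 7.64% of all autosomal genes, and the share called higher 7.69%, against 3.85%. The median was 0.18 on the log2 scale, and 53 of the 65 lay above 0, against 49.3% of all autosomal genes. Esco2, which acetylates cohesin during replication, was at 46.2 and 55.4 CPM in WT and 91.0 and 85.7 CPM in mutant libraries (0.80 ± 0.09). Mcm6, a subunit of the replicative helicase, was at 9.60 and 9.48 CPM in WT and 18.1 and 17.1 CPM in mutant libraries (0.88 ± 0.11). Both genes were clearly separated between the genotypes. Atad2, a chromatin ATPase gene and E2F target, was higher by 0.58 ± 0.09, and Uhrf1 and Clspn, named after their values were seen, by 0.36 ± 0.09 and 0.40 ± 0.12. The Clspn call was lost in 10 alternatives. The 1 lower member was the G1 cyclin gene Ccnd1, at 184 and 184 CPM in WT and 124 and 133 CPM in mutant libraries (-0.52 ± 0.07), and it was also lower with vehicle (-0.34 ± 0.07).

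Among repair genes, 5 of 31 members of homologous recombination and Fanconi repair were higher (16.1%, against 3.85% of all autosomal genes) and none lower, with a median of 0.20. They were Bard1, Brca1 and Brca2, of the BRCA complexes, Ube2t, the ubiquitin-conjugating enzyme of the Fanconi pathway, and Rad51ap1. Brca1 was at 4.04 and 4.10 CPM in WT and 7.28 and 5.38 CPM in mutant libraries (0.64 ± 0.18), and Bard1 had the same log2 fold change (0.64 ± 0.16). The calls of Rad51ap1, Brca2, Brca1, Ube2t and Bard1 were lost in 13, 7, 4, 3 and 2 alternatives. The count was not stable: it was 1 without any single doxorubicin library of either genotype, 3 with DESeq2 and 2 with limma-voom. With vehicle none of the 31 was called (all autosomal genes, 5.94%). The gap between the comparisons with and without the drug was called for no member (all autosomal genes, 0.0788%). In the DNA damage signaling list 2 of 26 were called, both higher, a share of 7.69% that was near the 7.64% of all autosomal genes. They were the checkpoint mediator Mdc1 (0.44 ± 0.07) and the ubiquitin ligase Rnf168 (0.30 ± 0.08), whose call was lost in 4 alternatives.

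Interferon-stimulated genes were lower in mutant cells, and were so with and without the drug. Of 36 tested with doxorubicin, 19 were called lower (52.8%, against 3.79% of all autosomal genes) and none higher, and no member had a log2 fold change above 0. The median was -1.02. The libraries did not overlap for 33 of the 36 (91.7%, against 47.6% of all autosomal genes), each lower in mutant cells. With vehicle 16 were lower (all autosomal genes, 3.21%) and none higher, with a median of -1.16, and 14 of the 19 members were called in both comparisons. The 19 members all had the same sign with vehicle. The median gap between the comparisons was -0.03, and edgeR called it for no member (1 had an unadjusted p under 0.05). Many promoters of genes induced by type I interferon hold the interferon-stimulated response element (ISRE).

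The promoter window of Ifit1, a classical member, is shown as an example of this element (chr19:34640639-34640908, GRCm38.p6, plus strand, 250 bases before to 20 after the RefSeq start), with matches in capitals. A match was 2 copies of GAAA spaced by 2 bases of any kind, or the same on the other strand (TTTC).
Ifit1: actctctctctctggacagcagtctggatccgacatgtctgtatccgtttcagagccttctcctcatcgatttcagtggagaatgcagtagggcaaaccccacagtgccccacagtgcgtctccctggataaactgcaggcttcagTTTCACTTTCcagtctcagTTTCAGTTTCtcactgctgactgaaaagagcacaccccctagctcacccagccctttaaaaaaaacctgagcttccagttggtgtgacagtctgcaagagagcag
It held 2 matches. On both strands of 300-base windows a match stood in 16 of 34 windows of the list (47.1%, 29 of 36 genes matched to RefSeq), in 10 of 15 windows of the called members (66.7%), and in 3.03% of the windows of all tested autosomal genes.

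Ifi44 was at 13.2 and 8.64 CPM in WT and 0.320 and 1.19 CPM in mutant libraries, the largest difference in the list (log2 fold change -3.84 ± 0.49). Usp18, which encodes the protease that removes ISG15 and restrains interferon signaling, was at 37.3 and 33.3 CPM in WT and 2.60 and 4.62 CPM in mutant libraries, 9.74-fold lower. Ifit1, which encodes a protein that binds foreign RNA, was at 10.9 and 9.08 CPM in WT and 2.64 and 2.93 CPM in mutant libraries. None of these 3 genes overlapped between the genotypes. Rtp4 (-2.17 ± 0.30), Samd9l (-1.57 ± 0.19), the TRIM family genes Trim30a (-1.55 ± 0.19) and Trim30d (-1.67 ± 0.20), and Lgals3bp (-1.37 ± 0.15) were also lower. Of genes named after their values were seen, the RNA sensors Ddx58 (RIG-I) and Ifih1 (MDA5) had log2 fold changes of -1.17 ± 0.22 and -0.78 ± 0.16, and the GTPase gene Irgm1 one of -0.99 ± 0.13. The vehicle libraries of WT cells differed among themselves, with Ifi44 at 2.64 and 10.1 CPM and Usp18 at 1.26 and 5.37 CPM, whereas in mutant vehicle libraries Ifi44 was at 0.823 and 0.305 CPM and Usp18 at 0.412 and 0.373 CPM. The summed macrophage and leukocyte markers, given above, were higher in mutant cells, and whether they bear on the interferon-stimulated genes was not tested.

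**Figure D3:**
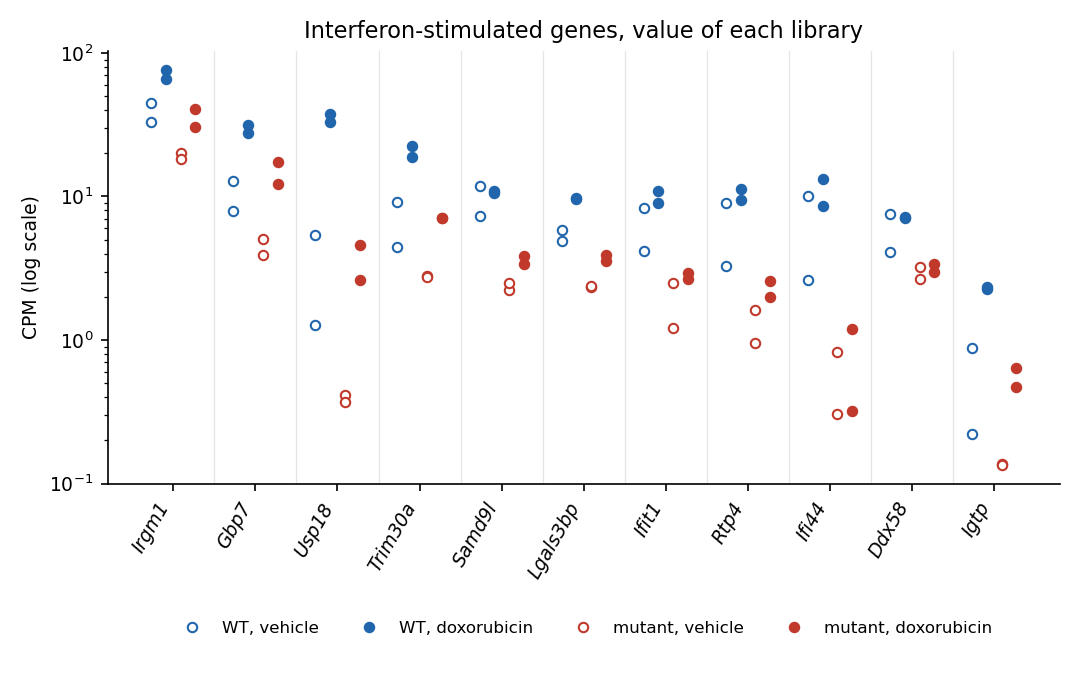
Interferon-stimulated genes with the smallest p among those called lower with doxorubicin are shown. Each library has 1 point (CPM, log scale), open for vehicle and filled for doxorubicin, blue for WT and red for mutant. The filled red points lie below the filled blue points for each gene, a difference by which the genes were chosen. The 2 WT vehicle libraries lie apart from each other for most of the genes.

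Genes of class I antigen presentation are also induced by interferon. Of 10 tested genes of the major histocompatibility complex list, 3 were lower (30%, against 3.79% of all autosomal genes), none was higher and 7 were not called, with a median of -0.50. H2-K1, a class I heavy chain gene, was at 29.6 and 28.6 CPM in WT and 16.2 and 16.5 CPM in mutant libraries (-0.83 ± 0.10). H2-D1 had -0.81 ± 0.12, and B2m, the shared light chain, was at 1371 and 1345 CPM in WT and 973 and 1047 CPM in mutant libraries (-0.43 ± 0.07). The groups did not overlap in these genes, and the 3 were also called lower with vehicle. H2-K1 and H2-D1 are near-identical in part, so how reads were divided between them is uncertain.

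Of 29 tested genes of the NF-kappaB and inflammatory list, 7 were lower (24.1%, against 3.79% of all autosomal genes), none was higher and 22 were not called, with a median of -0.21. Chemokine genes were among them: Cxcl12 was at 57.6 and 63.2 CPM in WT and 38.2 and 37.6 CPM in mutant libraries (-0.67 ± 0.08), Cxcl1 at 15.2 and 16.2 against 7.48 and 9.17 CPM (-0.91 ± 0.12), and Ccl2 at 251 and 196 against 147 and 162 CPM (-0.53 ± 0.09). Cxcl5 varied between the WT libraries, at 35.3 and 20.1 CPM, and stood at 14.2 and 16.1 CPM in mutant libraries. The others were the adhesion genes Vcam1 (-0.33 ± 0.08) and Icam1 (-0.52 ± 0.13) and the prostaglandin synthase gene Ptges (-0.36 ± 0.11). The Ptges call was lost in 9 alternatives, the Icam1 call in 4, the Cxcl5 call in 3 and the Vcam1 call in 2. The count was 3 without WT doxorubicin library A, 4 without mutant doxorubicin library A and 4 with DESeq2. With vehicle 4 members were lower (all autosomal genes, 3.21%), among them Cxcl12, Cxcl1 and Cxcl5, and 1 was higher (all autosomal genes, 2.73%).

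The genes with the largest differences were read without regard to the lists. Where the mean over the 4 libraries was 4 CPM or more, 18 were at least 2-fold higher and 32 at least 2-fold lower. Tnfaip6, which encodes the secreted hyaluronan-binding protein TSG-6, was at 66.6 and 74.3 CPM in WT and 333 and 338 CPM in mutant libraries, 4.76-fold higher (log2 fold change 2.25 ± 0.08, edgeR adjusted p = 7.78e-15). Shoc2, which encodes a scaffold of RAS and RAF signaling, was at 44.1 and 46.6 CPM in WT and 196 and 221 CPM in mutant libraries, 4.59-fold higher. The groups lay several fold apart in both genes. Igfbp5, which encodes an insulin-like growth factor binding protein, was at 43.0 and 48.0 CPM in WT and 161 and 138 CPM in mutant libraries (1.71 ± 0.09). Cap1, an actin regulator, was at 16.9 and 21.8 CPM in WT and 78.4 and 73.8 CPM in mutant libraries (1.97 ± 0.12). Apold1 (2.90 ± 0.19), the ion pump regulator Fxyd6 (2.89 ± 0.17) and Crispld1 (2.85 ± 0.24) had the largest fold changes among these genes but were at most 11.6 CPM in any of the 4 libraries. The remaining genes of the 15 largest were Dpt, Map2, Cacnb4, Gdf6, Zfp933, Mtfr2, D830031N03Rik and Hpgd, from 1.56 down to 1.06.

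Among the lower genes, Pdpn, which encodes the membrane glycoprotein podoplanin, was at 477 and 432 CPM in WT and 90.5 and 94.5 CPM in mutant libraries, 4.91-fold lower (log2 fold change -2.30 ± 0.08, edgeR adjusted p = 4.63e-15). Cdkn1b, which encodes the cyclin-dependent kinase inhibitor p27, was at 18.6 and 25.7 CPM in WT and 2.56 and 2.89 CPM in mutant libraries, 8.14-fold lower (-3.02 ± 0.16). Each was far outside the spread of the other group. B3galt6, a galactosyltransferase gene of proteoglycan synthesis, was at 49.2 and 45.2 CPM in WT and 11.2 and 9.92 CPM in mutant libraries (-2.16 ± 0.10). Hmgn2, which encodes a nucleosome-binding protein, was at 42.3 and 42.9 CPM in WT and 13.8 and 13.8 CPM in mutant libraries (-1.63 ± 0.09). Tnfrsf1b, a receptor gene for tumor necrosis factor, had -2.73 ± 0.18 and Mxra8, a cell adhesion gene, -2.61 ± 0.18. Apart from interferon-stimulated genes named above, the 15 largest also held Pm20d1 (-1.73 ± 0.22) and the matrix gene Abi3bp (-1.48 ± 0.17). Actb, which encodes beta-actin and often serves as a reference gene, was named after its values were seen. It was at 23521 and 27337 CPM in WT and 44155 and 43222 CPM in mutant libraries (0.78 ± 0.07).

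Most of the large differences were also there without the drug. The vehicle comparison uses 4 other libraries, though the spread was estimated over all 8. It called 678 autosomal genes (5.94%), 312 higher (2.73%) and 366 lower (3.21%). The genes called higher in both numbered 183, which is 41.69% of those called with doxorubicin and 58.65% of those called with vehicle, and 230 were lower in both (53.12% and 62.84%). No gene was called in opposite directions. Of the 55 genes at least 2-fold higher with doxorubicin, 33 were called higher with vehicle too and 48 had the same sign. Of the 88 at least 2-fold lower, 54 were called lower with vehicle and 82 had the same sign. Shoc2 had a log2 fold change of 2.30 ± 0.08 with vehicle, Tnfaip6 1.90 ± 0.08, Pdpn -2.03 ± 0.07 and Cdkn1b -3.14 ± 0.13. Pm20d1 could not be compared this way, since with vehicle it was below the level that a count of 0 allows in every library.

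The gap between the 2 genotype comparisons was called for 9 autosomal genes (0.0788%) by edgeR, 4 with a positive (0.035%) and 5 with a negative gap (0.0438%), while 656 had an unadjusted p under 0.05. With DESeq2 it was called for 17 genes and with limma-voom for 4. Left out 1 at a time, the libraries gave between 0 calls (without WT vehicle library B, or without mutant vehicle library A) and 48 calls (without WT doxorubicin library B). Without WT vehicle library A there were 3, without mutant vehicle library B 2, and without mutant doxorubicin libraries A and B 4 and 2. The 256 genes called higher and 203 called lower only with doxorubicin are therefore mostly not shown to differ from the vehicle comparison.

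**Figure D4:**
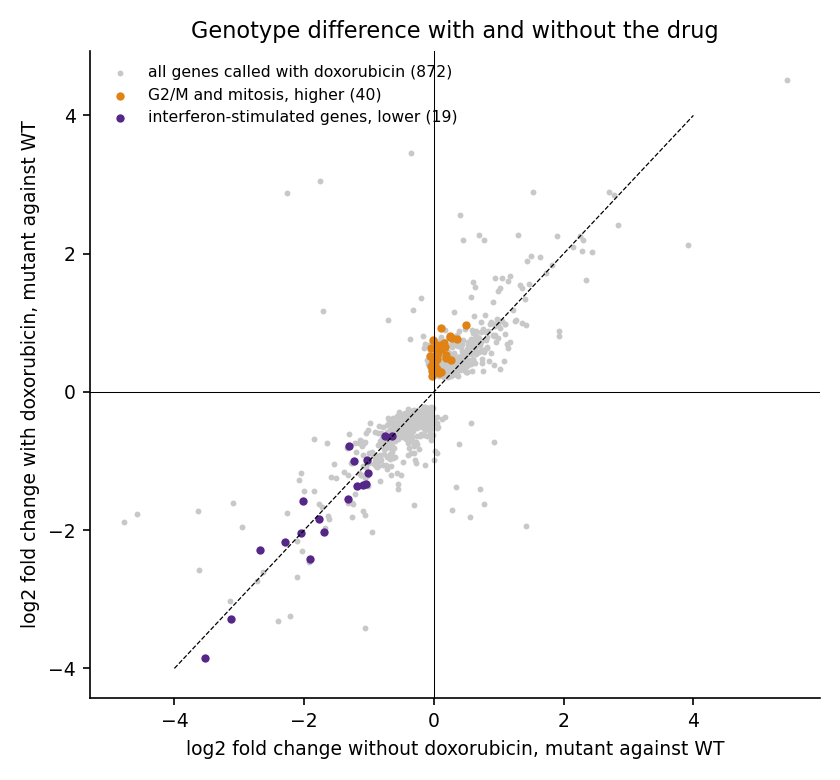
Each point is 1 of the 872 autosomal genes called with doxorubicin, with its log2 fold change (mutant against WT) without the drug on the horizontal axis and with the drug on the vertical axis, and the dashed line marks equal values. The 19 interferon-stimulated genes called lower with doxorubicin (purple) lie along the line. The 40 mitotic genes called higher with doxorubicin (orange) lie from -0.0608 to 0.494 on the horizontal axis. For both sets the side of 0 on the vertical axis was fixed by this choice.

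Called genes were unevenly spread over the genome. Gene order was taken from GRCm38, as the counts were made on mm9, and the stretches below were chosen after their values were seen, so they are described without a test. Chromosome 4 had 94 of 740 tested genes called (12.7%) and 33 at least 2-fold different (4.46%), the highest shares of any autosome. Chromosome 8 had the lowest share called, 4.24%, and chromosomes 13 and 17 held no 2-fold gene. Tested genes were cut into 277 consecutive windows of 40 to 44 genes. The median window had 5.0% of its genes called, and 194 windows held no 2-fold gene.

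The last 5 windows of chromosome 4, from Fam46b to Klhl17, held 205 tested genes. Of these, 42 were called (20.5%) and 20 differed at least 2-fold (9.76%), 5 higher and 15 lower, against 7.4% called and 1.1% at least 2-fold in all other windows. In 27 of the 42 the same call was made with vehicle. Epha2, Pdpn, Tnfrsf1b, Hmgn2, Zfp933, Mxra8 and B3galt6 lie in this stretch. The window with the most 2-fold genes ran from Necap2 to Fbxo6, with 13 of 41 genes called (31.7%) and 10 of them at least 2-fold. It held members of a cluster of zinc finger genes that moved in opposite directions. Gm13154 had 2 and 3 counts in WT and was at 1.04 and 2.81 CPM in mutant libraries. In contrast, 2610305D13Rik was at 5.73 and 5.98 CPM in WT and 1.20 and 0.751 CPM in mutant libraries, and Gm13157 at 8.58 and 8.23 CPM in WT and 3.36 and 3.56 CPM. These zinc finger genes have near-identical copies, so their counts are uncertain. Each of the 3 had the same call with vehicle.

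On chromosome 6 the window from Clec2d to Aebp2 had 15 of 42 genes called (35.7%) and 8 at least 2-fold different (19%). Cdkn1b and Apold1 are adjacent in it and differed in opposite directions, by -3.02 ± 0.16 and 2.90 ± 0.19. Mgp, which encodes the mineralisation inhibitor matrix Gla protein, was at 180 and 196 CPM in WT and 81.5 and 77.2 CPM in mutant libraries (-1.24 ± 0.07). Emp1, an epithelial membrane protein gene, was at 6958 and 7127 CPM in WT and 10994 and 10795 CPM in mutant libraries (0.63 ± 0.06). The receptor gene Gprc5a was lower (-1.97 ± 0.24) and the heme-binding protein gene Hebp1 higher (0.95 ± 0.20). In 11 of the 15 genes the same call was made with vehicle. Which strains the cells came from is not given in the sources used here, and whether sequence differences between cultures enter these counts was not tested.

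**Figure D5:**
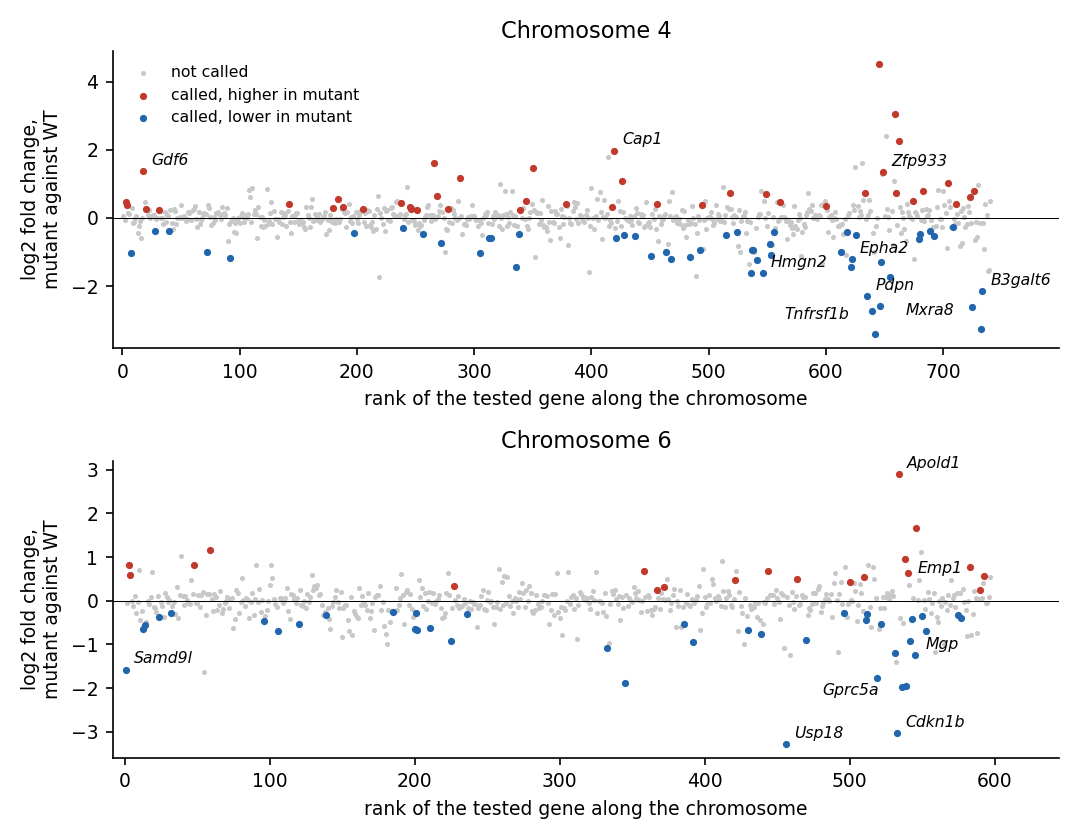
Tested genes of chromosomes 4 and 6 are plotted by rank along the chromosome against their log2 fold change with doxorubicin (mutant against WT), called genes in red (higher) or blue (lower) and others in grey. Many of the large differences lie in the distal part of both chromosomes, in both directions. On chromosome 6 the last window, from Pyroxd1 to Bicd1, held no 2-fold gene.

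Fibroblasts keep expression of Hox genes and other patterning factors from the embryonic region they came from. Of 51 tested patterning transcription factors outside the Hox clusters, 9 were higher and 7 lower (31.4% called, against 7.64% of all autosomal genes), with 10 higher and 7 lower with vehicle. Zic1 was higher (0.61 ± 0.09), and Emx2 was at 54.8 and 55.3 CPM in WT and 69.9 and 76.6 CPM in mutant libraries. Gata2 was at 5.40 and 5.73 CPM in WT and 2.56 and 2.73 CPM in mutant libraries. Of 28 Hox genes, 4 were higher and 3 lower (25% called). Hoxc8 (0.40 ± 0.10, a call lost in 3 alternatives), Hoxc9 (0.86 ± 0.16) and Hoxc13 (0.63 ± 0.11) of the HoxC cluster were higher. Hoxd10 was lower (-0.68 ± 0.11). Each of these genes had the same call with vehicle, and whether the regions of the embryo differed between the genotypes was not tested.

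In signaling pathways genes were called in both directions. Of 33 tested Wnt pathway genes, 4 were higher and 2 lower (18.2% called, against 7.64% of all autosomal genes). The Wnt target and R-spondin receptor gene Lgr5 was at 1.79 and 1.00 CPM in WT and 5.44 and 4.51 CPM in mutant libraries (1.84 ± 0.21). Lef1, the nuclear effector of the pathway, was at 25.8 and 35.2 CPM in WT and 62.3 and 62.1 CPM in mutant libraries (1.03 ± 0.11). Sfrp1, a secreted inhibitor, was lower (-0.65 ± 0.10), and Wisp1 was higher (0.29 ± 0.06). These 4 genes were called in the same direction with vehicle. Of 36 TGF-beta and BMP genes, 2 were higher and 4 lower (16.7% called). The ligand gene Gdf6 was at 6.46 and 5.48 CPM in WT and 15 and 15.9 CPM in mutant libraries (1.37 ± 0.13), Inhbb, which encodes an activin subunit, was lower (-0.61 ± 0.08), and so were the BMP binder Bmper (-0.41 ± 0.08) and Ltbp2 (-0.43 ± 0.08).

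Of 52 tested collagens and matrix genes, 3 were higher and 4 lower (13.5% called, against 7.64% of all autosomal genes), with a median of -0.05. Thbs2, which encodes thrombospondin 2, was at 1326 and 1458 CPM in WT and 1856 and 1932 CPM in mutant libraries (0.44 ± 0.06). Col11a1 (-0.55 ± 0.08), Col8a2 (-1.12 ± 0.20) and the proteoglycan gene Ogn (-0.64 ± 0.09) were lower. Of 29 matrix proteases and inhibitors 13.8% were called: 1 was higher (Adamts9, 0.68 ± 0.11) and 3 were lower (Timp2, -0.41 ± 0.07; Ctsl, -0.34 ± 0.08; Mmp2, -0.47 ± 0.11). Of 22 smooth muscle and myofibroblast genes 18.2% were called: Tagln was higher (0.43 ± 0.08), and Mylk (-0.58 ± 0.08), Mcam (-0.44 ± 0.09) and Cnn1 (-0.50 ± 0.12) were lower. The Cnn1 call was lost in 3 alternatives.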

How the data were processed

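RNA of 8 libraries was measured, 2 in each of 4 groups. The authors deposited raw counts for each gene name, with Bowtie2, HTSeq and the mm9 build named in the submitters' processing notes. The labels name both an exome-capture kit and 3′ sequencing, which was not resolved, so levels were not compared between genes. The annotation and strand setting are not given in the sources used here, so antisense, overlapping and near-identical genes are uncertain.

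Tests used edgeR 4.0.16 in R 4.3.3. Low genes were removed with filterByExpr (minimum count 10, minimum total 15, grouped by the 4 groups). After TMM scaling, a quasi-likelihood fit gave each group its own coefficient over the 8 libraries, leaving 4 residual degrees of freedom. Tests were two-sided, with Benjamini-Hochberg adjustment across the 12255 genes. Each SE is the absolute log2 fold change over the root of F. CPM were scaled by the TMM factors. Chromosomes and gene order came from GRCm38 (GENCODE) and RefSeq symbols, and 400 tested names without a chromosome were left out. Promoter windows came from RefSeq, for 9002 of the 11417 genes. The pipeline was tested on simulated data.

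The members and the 25 pathway and 10 cell type lists were chosen with earlier results of these data known, so they are described by counts and medians without a list test. Named were the anchors Trp53, Mdm2 and Cdkn1a, the 15 called genes per direction that changed most (mean of 4 CPM or more, no overlap), from each list the called members with the smallest p, at most 4 (or 2 uncalled ones if there were none), and genes called in the difference of the comparisons. A few results are not reported here. Others are said to be named after their values were seen. Alternatives were DESeq2 size factors, upper-quartile factors, DESeq2 1.42.0, limma-voom (limma 3.58.1), no filter, 5 CPM in 2 libraries, a replicate block, only the 4 libraries compared, an adjusted p of 0.10, leaving out sex-linked and unplaced names, and leaving out each library.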

Additional observations from a re-analysis of the deposited data

Results flagged for a closer look

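For 9 autosomal genes the difference between the genotypes with doxorubicin departed from that without it in edgeR's quasi-likelihood test of the gap (with minus without, log2 scale, Benjamini-Hochberg adjusted p under 0.05). The gap was 0.76 for Hmmr, 0.67 for Mki67 and 0.68 for Esco2, which were called higher in mutant cells with doxorubicin and not with vehicle. Prdm16, a transcription factor gene, had a gap of 1.74, with a log2 fold change of 1.04 ± 0.24 with doxorubicin and -0.71 ± 0.22 with vehicle.

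The gap was negative for the other 5 genes. It was -1.45 for the cytidine deaminase gene Apobec1, -0.98 for Bnc1 and -0.81 for Pttg1, which were called higher in mutant cells with vehicle and not with doxorubicin. Bcl11b, with a gap of -0.62, was called higher in both comparisons. Pcdhb3, a clustered protocadherin gene with a gap of -2.40, was at 3.91 and 3.00 CPM in WT and 1.20 and 1.03 CPM in mutant libraries with doxorubicin, and its reads can be shared with related protocadherin genes.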

How the results depend on the processing

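Among 151 called genes that the text names or the naming rule picks, 105 kept the call in every alternative that tested them, 46 lost it in at least 1, and none reversed. Trp53, which was not called, reversed to -0.00144 without mutant doxorubicin library B (range -0.00144 to 0.30 with 1 library left out), and Krt18, also not called, to -0.35 without WT doxorubicin library B and -0.0108 without mutant doxorubicin library B (range -0.35 to 0.71). The 872 calls with doxorubicin were 705 with DESeq2, 926 with the replicate block (library letter as a term), 718 with only the 4 libraries compared and 485 to 1118 with 1 library left out. For the vehicle comparison (678) the replicate block gave 697 and leaving out 1 library gave 361 to 784. The 9 calls in the gap became 17 with DESeq2, 4 with limma-voom, 44 with no filter, 5 with at least 5 CPM in 2 libraries, 17 at an adjusted p of 0.10, 13 with the replicate block and 0 to 48 with 1 library left out. The causes were not tested.

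Alternatives for single lists were added after seeing the data. The 40 mitotic genes were 23 to 36 and the 19 interferon-stimulated genes 14 to 21 with 1 library left out, and each stayed within 1.5 times under the other settings. The 7 inflammatory genes were 4 with DESeq2 and 3 to 8 with 1 library left out. The 5 recombination and Fanconi genes were 3 with DESeq2, 2 with limma-voom, 3 with only the 4 libraries compared and 1 to 4 with 1 library left out.

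The labels do not say that the letters A and B pair libraries, so the block is given as an alternative only. Over genes, the A minus B differences of the WT and mutant doxorubicin libraries correlated at 0.104. The correlation was -0.118 between WT vehicle and WT doxorubicin, 0.275 between mutant vehicle and mutant doxorubicin, 0.167 between the vehicle groups, 0.12 between WT doxorubicin and mutant vehicle and 0.119 between WT vehicle and mutant doxorubicin. With 2 libraries a group, small differences of weakly expressed genes were not detectable. The median of all autosomal genes was -0.00125 with DESeq2 size factors and 0.0135 with upper-quartile factors.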

Other observations

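The shares called in further lists are given against the 7.64% of all autosomal genes called with doxorubicin. They were 17.9% for immediate early genes, 16.7% for fibroblast markers and 16% for imprinted genes. Genes of cholesterol and fatty acid synthesis had 13.3%, ribosomal protein genes 11.8% and glycolytic genes 9.52%. Clustered protocadherins had 7.69%, NRF2 antioxidant genes 7.41%, circadian genes 6.25% and ATF4 stress response genes 2.94%. Of 27 NRF2 antioxidant genes 2 were lower, the glutathione transferase gene Mgst1, at 75.6 and 78.0 CPM in WT and 50.9 and 44.9 CPM in mutant libraries (log2 fold change -0.68 ± 0.08), and the quinone reductase gene Nqo1, at 146 and 155 CPM in WT and 108 and 110 CPM in mutant libraries (-0.46 ± 0.07). Both were also lower with vehicle. Of 30 genes of cholesterol and fatty acid synthesis 3 were lower, among them Insig2 (-0.42 ± 0.09), which encodes a protein that restrains SREBP, and Sc5d, a late enzyme of cholesterol synthesis, was higher (0.35 ± 0.07). Of 21 glycolytic genes Pkm (-0.48 ± 0.08) and Ldha (-0.26 ± 0.07) were lower, and the Ldha call was lost in 7 alternatives. Of 34 genes of the ATF4 stress response 1 was lower, the tRNA synthetase gene Gars (-0.27 ± 0.08), a call lost in 6.

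Of 68 ribosomal protein genes 6 were higher and 2 lower, with a median of 0.11. Rps20 (0.37 ± 0.09) and Rpl37 (0.37 ± 0.09) were among the higher ones, and Rpl15 (-0.41 ± 0.07) and Rpl29 (-0.59 ± 0.14) were the lower ones. Ribosomal protein genes have many processed copies, so their counts are uncertain. Of 28 immediate early genes Fosb (0.48 ± 0.14) and Nr4a1 (0.40 ± 0.12) were higher, and 3 were lower, among them Egr1 (-0.24 ± 0.07) and the YAP target Ctgf (-0.29 ± 0.08). The Nr4a1 call was lost in 5 alternatives and those of Fosb and Egr1 in 4 each. Of 25 imprinted genes Zdbf2 (0.31 ± 0.08) and Dcn (0.26 ± 0.08) were higher and Asb4 (-0.66 ± 0.13) and Igf2 (-0.31 ± 0.09) lower. The Dcn call was lost in 11 alternatives and the Igf2 call in 7. Of 16 circadian genes 1 was higher, Per3 (0.80 ± 0.18), and of 13 clustered protocadherins 1 was lower, Pcdhb3. Of 12 fibroblast markers, Thy1 (0.35 ± 0.08) and Dcn were higher.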
